A study of Mus musculus with 2 samples.

Results

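The immediate early genes described here were *Fos*, *Fosb*, *Jun*, *Junb*, *Egr1*, *Ier2*, *Nr4a1*, *Arc*, *Atf3* and *Btg2*, found by their symbols among the 32285 genes of the count tables, so that there were 10 members of 32285. Each symbol matched a single gene. They were measured by single-cell RNA sequencing of the dissected cerebral cortex of mouse embryos at E16.5, in 2 libraries of 1 group. Both libraries carry the genotype WT and come from control animals of EomesDot, a line in which Cre is driven from *Eomes*, the gene that marks intermediate progenitors. No allele or treatment separated the libraries. All comparisons below are therefore between cell types within the same libraries, and the numbers 1 and 2 only name the libraries. How many embryos went into a library is not given in the labels. The p-values therefore measure only how far differences between types vary from library to library, which may be technical.

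Immediate early genes are transcribed within minutes of a stimulus from factors that the cell already holds, without new protein synthesis. FOS and JUN family proteins pair to form the AP-1 transcription factor, EGR1 and NR4A1 are DNA-binding factors in their own right, and ARC is a synaptic protein of excitatory neurons. Growth factors, calcium entry through synaptic activity, mechanical stress and enzymatic dissociation of tissue can all induce them, while *Btg2* (also called *Tis21*) is in addition a known mark of neural progenitors that divide to give neurons.

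In library 1, 5966 of 9049 barcodes and in library 2 10247 of 13556 barcodes held 1500 to 60000 unique molecular identifiers (UMIs, one per captured RNA molecule) with under 10% of them mitochondrial. The median depth of the kept cells was 5706 and 4938 UMIs. Marker gates placed 53.9% and 50.6% of the kept cells in 15 types, from 25 and 39 Cajal-Retzius cells to 918 and 1585 upper-layer excitatory neurons. The gates read marker UMIs alone and none of the 10 genes. Although the labelled tissue is cerebral cortex, 381 and 607 cells carried striatal projection neuron markers. The libraries shared 40 cell barcodes, 21 of them among the kept cells. Levels are UMIs of a gene per 1000000 UMIs of a type's summed cells in a library (CPM), and each pair of values gives library 1 first.

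The 10 genes together were highest outside the neural lineages and lowest, apart from erythroid cells, in excitatory neurons. Meningeal fibroblasts held 1494 and 701 CPM of the 10 genes, mural cells 748 and 1272, microglia and macrophages 917 and 795 and endothelial cells 594 and 686. Among neural types, radial glia, the stem cells of the cortical wall, were first with 578 and 429.6 CPM, followed by glial-fated progenitors with 353 and 419, GABAergic progenitors with 321 and 282 and intermediate progenitors with 245 and 206. Medial ganglionic eminence (MGE) interneurons held 169 and 144 CPM, caudal ganglionic eminence (CGE) interneurons 164 and 149 and striatal projection neurons 121 and 106. Deep-layer excitatory neurons held 94.3 and 83.4 CPM and upper-layer excitatory neurons 74.5 and 74.8. Cajal-Retzius cells, with 346 and 104 CPM, differed more between the libraries than any neighbour in this order. The libraries' ranges overlapped between fibroblasts, mural cells and microglia, so that these 3 types had no order beyond their spread, and so did those of MGE and CGE interneurons. The range of Cajal-Retzius cells spanned those of every neural type from GABAergic progenitors to striatal projection neurons. Erythroid cells, which hold little RNA other than globin, gave 23.3 and 24.3 CPM. Their gate asked for 50% or more globin UMIs, which lowers the CPM of every other gene. The value therefore sets no limit for free RNA in other types, and free RNA was not estimated.

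**Figure D1:**
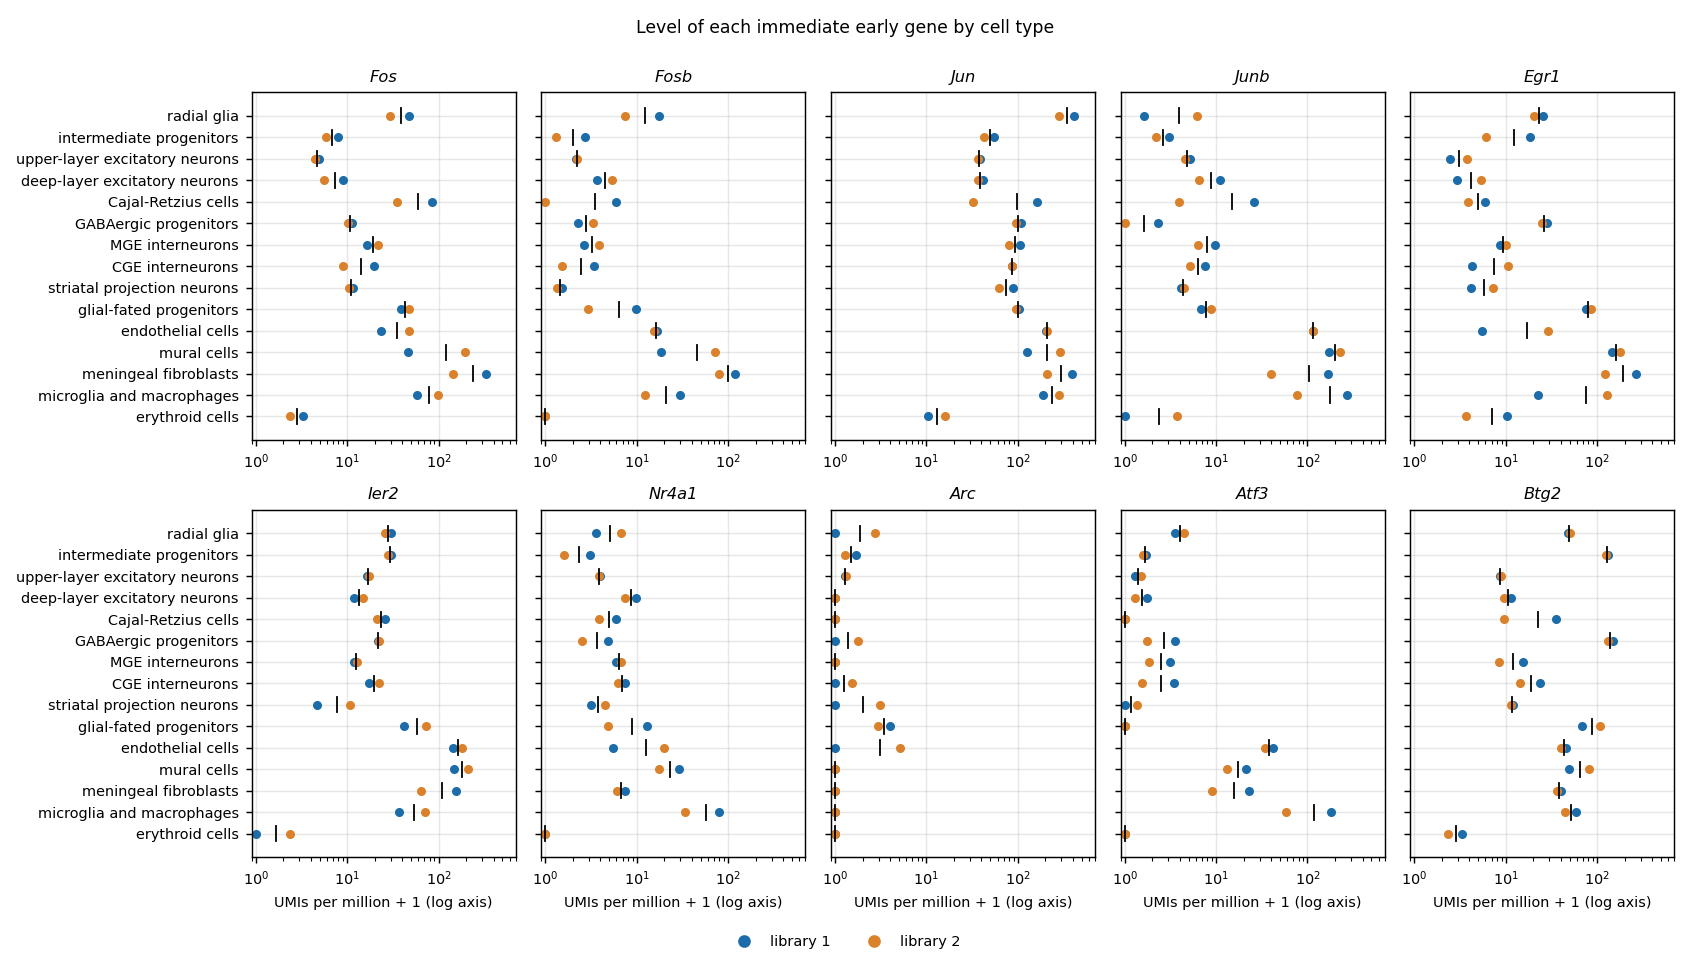
Level of each of the 10 genes in 15 cell types. The x axis gives CPM plus 1 on a log axis, points are the 2 libraries and the black bar is their mean. *Junb* and *Atf3* lie furthest to the right in the vascular, meningeal and immune types, *Jun* also in radial glia, and *Btg2* is rightmost in GABAergic and intermediate progenitors.

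Among the AP-1 genes, *Fos* and *Fosb* both had their highest mean levels in meningeal fibroblasts and then in mural cells. *Fos* stood at 332 and 144 CPM in meningeal fibroblasts, 45.3 and 193 in mural cells, 57.3 and 97.2 in microglia and 22.6 and 46.6 in endothelial cells. In radial glia it stood at 47 and 28.3 CPM and in glial-fated progenitors at 38.3 and 46.8, against 3.97 and 3.43 in upper-layer and 8.11 and 4.63 in deep-layer excitatory neurons. Library 1 was the higher one in fibroblasts and library 2 the higher one in mural cells, and the ranges of these neighbours overlapped. *Fosb* reached 119 and 79.3 CPM in fibroblasts, above the 17.6 and 71.7 of mural cells in both libraries, and was at or under 4.32 CPM in intermediate progenitors and in every neuron type other than Cajal-Retzius cells.

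*Jun* and *Junb*, which encode the partners of FOS proteins, had different orders of types, most plainly in radial glia. *Jun* reached 408 and 285 CPM in radial glia, a range that overlapped those of meningeal fibroblasts (390.3 and 208) and mural cells (126 and 287) and lay above those of microglia (186 and 280.2) and endothelial cells (203 and 208). *Junb* was at 0.636 and 5.20 CPM in the same radial glia, that is 1 and 9 UMIs, but at 115 and 113 CPM in endothelial cells, 171 and 223 in mural cells, 165 and 39.1 in fibroblasts and 272 and 76.3 in microglia. In microglia of library 1, 18 of 38 *Junb* UMIs lay in 1 cell. Radial glia were thus high for *Jun* and at the level of neurons or below for *Junb*, and the vascular and immune types were high for both.

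The transcription factor genes outside AP-1 each had their own order. *Egr1*, a zinc finger factor, was highest in meningeal fibroblasts (267 and 119 CPM) and mural cells (144 and 178), whose ranges overlapped. Glial-fated progenitors were the neural type where it was highest, at 73.6 and 83.8 CPM, within the wide range of microglia (21.5 and 126). GABAergic progenitors (27.1 and 23.8) and radial glia (24.8 and 19.6) followed with overlapping ranges. *Nr4a1*, an orphan nuclear receptor, was highest in microglia at 78.8 and 32.4 CPM, apart from the 27.7 and 16.4 of mural cells, but 8 of 11 of its microglial UMIs in library 1 came from a single cell. *Atf3*, a stress-induced factor of the ATF/CREB family, was also highest in microglia, at 179 and 57.2 CPM. In library 1, 23 of 25 of these UMIs lay in 1 cell, against 5 of 30 in library 2. Endothelial cells came next with 40.6 and 33.2 CPM, and *Atf3* was at or under 3.46 CPM in every neural type.

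*Ier2*, a nuclear regulator, was highest in mural cells (149 and 211 CPM), endothelial cells (142 and 180.3) and meningeal fibroblasts (154 and 63.2), with overlapping ranges. Its spread over neural types was narrower than that of *Fos*, from 3.71 and 9.74 CPM in striatal projection neurons to 41.2 and 72.1 in glial-fated progenitors. *Arc*, the classical synaptic activity gene of the list, gave 11 UMIs in all kept cells of library 1 and 31 in those of library 2. It was found in 0.168% and 0.234% of cells, its level did not exceed 4.14 CPM in any type, and it was too sparse to be tested. In deep-layer excitatory neurons no *Arc* UMI was seen in either library, where a count of 0 allows up to 1.16 and 0.927 CPM by counting error alone.

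*Btg2*, an antiproliferative gene, followed an order of its own. It was highest in GABAergic progenitors (147 and 129 CPM) and intermediate progenitors (129.6 and 124), whose ranges overlapped, then in glial-fated progenitors (67.7 and 107), whose range overlapped that of mural cells (47.8 and 79.9). Radial glia held 46.4 and 49.7 CPM, in the range of microglia (57.3 and 43.8). Excitatory neurons were low, at 10.4 and 8.65 CPM in the deep and 7.65 and 7.76 CPM in the upper layers.

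Likeness of the members' levels was described over the 30 sums of library and type. On the log2(CPM + 1) scale, Pearson's r between the 4 AP-1 genes ran from 0.61 for *Jun* and *Junb* and 0.72 for *Fos* and *Junb* to 0.83 for *Fos* and *Fosb* and 0.84 for *Fos* and *Jun*. *Junb* and *Atf3* had r = 0.83. *Btg2* was least like *Junb*, at r = 0.24, if *Arc* is left aside. These values are descriptive, since the sums share 2 libraries and differ in depth. The genes whose levels were most like the summed members were *Tram1*, *Plin3*, *Nr3c1*, *Epb41l2* and *Akap13*, with r from 0.93 to 0.94 among 10588 genes compared. Most like *Btg2* alone were *Cdk6*, *Fut10*, *Slc25a5*, *Mcm6* and *Anp32b*, with r from 0.88 to 0.91. *Cdk6* encodes a kinase of the G1 phase and *Mcm6* a subunit of the replicative helicase.

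The first comparison asked how the 4 vascular, meningeal and immune types (endothelial cells, mural cells, meningeal fibroblasts, microglia and macrophages) stood against 6 neural types (radial glia, intermediate progenitors, both excitatory classes, MGE and CGE interneurons), each type with equal weight. Of the 9 members tested, 8 reached the count minimum of the test outside the 4 types as well, and all 8 were higher in the former, where 54.8% of all genes tested passed the same threshold in either direction. *Atf3* reached it only in the types where it is high, and its values are a description. *Junb* had means of 181 and 113 CPM over the non-neural and 5.33 and 4.18 CPM over the neural types. The libraries did not overlap, and the log2 difference of the type averages was 5.05 ± 0.22 (SE), edgeR adjusted p = 3.7e-22. *Atf3* had means of 65.4 and 27.7 against 1.48 and 1.04 CPM. For *Fos* the means were 114 and 120.2 against 16.7 and 11.6 CPM (3.37 ± 0.24 (SE), edgeR adjusted p = 1.8e-15). Within libraries 1 and 2 alone, the difference of the types' mean log2 CPM (a prior count of 2 added, and called the single-library log2 ratio below) was 2.43 and 3.53. *Fosb* differed by 3.87 ± 0.38, *Egr1* by 3.76 ± 0.31 (2.80 and 3.61 in the single libraries), *Ier2* by 2.77 ± 0.18 and *Nr4a1* by 2.15 ± 0.31 on the log2 scale, with edgeR adjusted p at or under 2.2e-07. The smallest differences were those of *Jun* (1.77 ± 0.13 (SE), edgeR adjusted p = 1.7e-15) and *Btg2* (1.25 ± 0.15 (SE), edgeR adjusted p = 4.2e-09). *Btg2* averaged 47.3 and 49.6 CPM in the non-neural and 38.6 and 35.2 CPM in the neural types, the nearest pair of means of the tested members. *Arc*, with 0 and 4 UMIs in all 4 non-neural types, was not tested. The test averages the types' log levels, which can differ from the ratio of the mean CPM. Within the non-neural types, 1 cell held 6 of 10 and 26 of 45 of the *Fos* UMIs of endothelial cells in libraries 1 and 2, and without the cell richest in member UMIs of each type and library the calls stayed.

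Matches to known response elements in the members' promoters are shown beside these levels. The members did not share an order of types, and *Btg2* was highest in GABAergic and intermediate progenitors. RefSeq promoter windows of the GRCm38.p6 build (the mm10 of the submitters' notes), from 250 bases before to 50 after the annotated start, were at hand for 7 members, *Fos*, *Fosb*, *Jun*, *Junb*, *Nr4a1*, *Atf3* and *Btg2*. They were searched on both strands for the CArG box of serum response factor, the cAMP response element TGACGTCA, its half-site TGACG (which every full element also holds), the AP-1 site TGANTCA and the EGR site GCGNGGGCG. The full element was found in 1 of the 7, *Btg2*, and in 1.79% of all 32851 promoter windows. The half-site was found in 6 of the 7, with *Jun* the exception, and in 20.8% of all windows. The EGR site was found in 3 of the 7 (*Btg2*, *Fosb* and *Nr4a1*) and in 5.55% of all windows. Neither the CArG box (1.63% of all windows) nor the AP-1 site (7.81%) was found in a member's window. A match is a run of letters, not a site shown to be used. One element or half-site of each of the 6 genes is given below, read 5′ to 3′ along the gene's strand, with the match in capitals (CGTCA is the half-site on the other strand).
Btg2, chr1:134079303-134079332, minus strand: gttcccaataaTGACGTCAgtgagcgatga
Fos, chr12:85473812-85473841, plus strand: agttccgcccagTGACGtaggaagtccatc
Fosb, chr7:19310088-19310117, minus strand: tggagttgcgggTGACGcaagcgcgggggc
Junb, chr8:84978837-84978866, minus strand: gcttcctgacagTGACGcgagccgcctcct
Atf3, chr1:191183323-191183352, minus strand: ttaatagcattaCGTCAgcctgggattggt
Nr4a1, chr15:101266765-101266794, plus strand: ccgggccgtgtgCGTCAgtggcgcccccgc

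In the cortical lineage, radial glia were compared with excitatory neurons (the mean of the deep-layer and upper-layer classes). Of 9 members tested, 7 were higher in radial glia and none lower, where 54.8% of all genes passed in either direction. *Jun* stood at 408 and 285 CPM in radial glia and 38.9 and 35.7 CPM in excitatory neurons, a log2 difference of 3.04 ± 0.17 (SE), edgeR adjusted p = 2.1e-18. *Fos* (47 and 28.3 against 6.04 and 4.03 CPM) differed by 2.78 ± 0.38 (SE), edgeR adjusted p = 5.3e-08. *Egr1* stood at 24.8 and 19.6 against 1.70 and 3.52 CPM and *Fosb* at 16.5 and 6.35 against 1.94 and 2.77 CPM. In both genes library 1 showed the wider gap, with single-library log2 ratios of 3.09 and 2.01 for *Egr1* and 2.46 and 0.92 for *Fosb*. In the fit *Egr1* differed by 2.85 ± 0.48, *Btg2* by 2.32 ± 0.20, *Fosb* by 2.22 ± 0.47 and *Atf3* by 2.37 ± 0.72 on the log2 scale, with edgeR adjusted p at or under 0.0054. *Atf3* rested on 4 and 6 UMIs in radial glia and lost its call without the cell richest in member UMIs of each type and library. *Ier2* differed by 0.77 ± 0.27 (SE), edgeR adjusted p = 0.016, a call lost after thinning to 1500 UMIs per cell. *Junb*, at 0.636 and 5.20 against 7.08 and 4.54 CPM, did not pass (-0.97 ± 0.66 (SE), edgeR adjusted p = 0.22), nor did *Nr4a1* (-0.30 ± 0.50 (SE), edgeR adjusted p = 0.64). Markers of vascular cells were measured beside these results. The summed endothelial markers stood at 200.2 and 225 CPM in radial glia and 14.6 and 30.3 CPM in upper-layer neurons, against 8188 and 8184 CPM in endothelial cells. *Slco1c1* alone made up 184 and 192 CPM of the sum in radial glia, while *Cldn5*, a tight junction gene of endothelium, stood at 3.18 and 9.82 CPM there and 3.53 and 13.4 CPM in upper-layer neurons, and *Ly6c1* was at 0. The summed mural markers stood at 55.9 and 79.7 CPM in radial glia and 3.97 and 9.58 CPM in upper-layer neurons, against 12085 and 10512 CPM in mural cells, with *Notch3* at 31.8 and 42.7 CPM and *Rgs5*, a pericyte gene, at 1.91 and 2.31 CPM in radial glia. The part of vascular RNA in the radial glia levels was not tested. The comparisons below share these types and libraries, and are not independent of each other.

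Intermediate progenitors, the dividing daughters of radial glia that give excitatory neurons, were high for *Btg2*. For *Fos* and *Jun* their difference from excitatory neurons did not pass, though *Jun* lay above in both libraries (54.4 and 42.2 against 38.9 and 35.7 CPM). Against excitatory neurons, 3 of 9 tested members were higher and 2 lower, where 45.5% of all genes passed. *Btg2* stood at 129.6 and 124 CPM in intermediate progenitors and 9.04 and 8.21 in excitatory neurons, with no overlap, and its log2 difference was 3.76 ± 0.14 (SE), edgeR adjusted p = 2.1e-23. *Ier2* was higher by 0.87 ± 0.23 (SE), edgeR adjusted p = 0.0014. *Egr1* was higher by 1.86 ± 0.48 (SE), edgeR adjusted p = 0.0015, although library 1 (17.3 against 1.70 CPM) showed a wider gap than library 2 (5.12 against 3.52), and the single-library log2 ratios were 2.62 and 0.35. *Nr4a1* was lower in intermediate progenitors (log2 difference -1.92 ± 0.54 (SE), edgeR adjusted p = 0.0036, with -1.06 and -1.72 in the single libraries), a call that the stricter gate ended, and so was *Junb* (-1.82 ± 0.62 (SE), edgeR adjusted p = 0.014). *Fos* (0.16 ± 0.52), *Jun* (0.25 ± 0.22), *Fosb* (-1.17 ± 0.72) and *Atf3* (0.29 ± 0.84) did not pass.

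Against radial glia, intermediate progenitors were higher in 1 of 9 tested members and lower in 3, where 32.2% of all genes passed. *Btg2* was the one that was higher, at 129.6 and 124 CPM against 46.4 and 49.7 CPM, a log2 difference of 1.44 ± 0.16 (SE), edgeR adjusted p = 2.1e-09. *Jun* fell from 408 and 285 CPM in radial glia to 54.4 and 42.2 CPM (-2.80 ± 0.22 (SE), edgeR adjusted p = 1.1e-13). *Fos* (-2.62 ± 0.46 (SE), edgeR adjusted p = 1.5e-05) and *Fosb* (-3.39 ± 0.67 (SE), edgeR adjusted p = 1.0e-04) were lower as well, with no overlap between the libraries of either pair. *Ier2* had about the same level in both (29.4 and 26.8 against 29.2 and 24.8 CPM, 0.10 ± 0.28 (SE), edgeR adjusted p = 0.84). *Egr1* (-0.98 ± 0.45), *Atf3* (-2.08 ± 0.85), *Nr4a1* (-1.62 ± 0.71) and *Junb* (-0.85 ± 0.94) did not pass.

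Within radial glia, cells with at least 4 of 13 cell cycle markers (112 and 142 cells) were compared with cells that held at most 2 (37 and 91 cells). Of the 5 members with enough UMIs to be tested, 3 were called lower in cycling cells, where 15.1% of all genes passed. Of these 3, only *Btg2* reached the count minimum in the cycling cells as well. *Fos* and *Egr1* reached it only with the non-cycling cells, where they are high, and their values are a description. *Btg2* stood at 38.6 and 36.2 CPM in cycling and 81.9 and 84.5 CPM in non-cycling radial glia. The 2 libraries lay close together in each state, and the log2 difference was -1.16 ± 0.28 (SE), edgeR adjusted p = 4.6e-04. *Fos* stood at 29.2 and 3.71 against 71.7 and 50.7 CPM (-2.04 ± 0.37 (SE)), with 34 and 4 UMIs in the cycling cells. *Egr1* stood at 23.2 and 8.34 against 34.1 and 44.4 CPM (-1.42 ± 0.41 (SE)), with 27 and 9 UMIs in the cycling cells. *Jun*, the member that set radial glia apart, did not pass (-0.28 ± 0.14 (SE), edgeR adjusted p = 0.18), with 362 and 274 CPM in cycling and 526 and 273 CPM in non-cycling cells, and neither did *Ier2* (-0.22 ± 0.41). This comparison rests on 4 sums. The single-library log2 ratios were -1.24 and -3.05 for *Fos* and -0.53 and -2.08 for *Egr1*. The calls of *Fos* and *Egr1* were lost without the library as a block, all 3 calls were lost with DESeq2, and that of *Fos* was lost without the cell richest in member UMIs of each sum. Cycling cells were deeper, with a median of 10294 and 6671 UMIs against 7590 and 4344, and after thinning every cell to 1500 UMIs these 3 genes had too few counts to be tested.

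**Figure D2:**
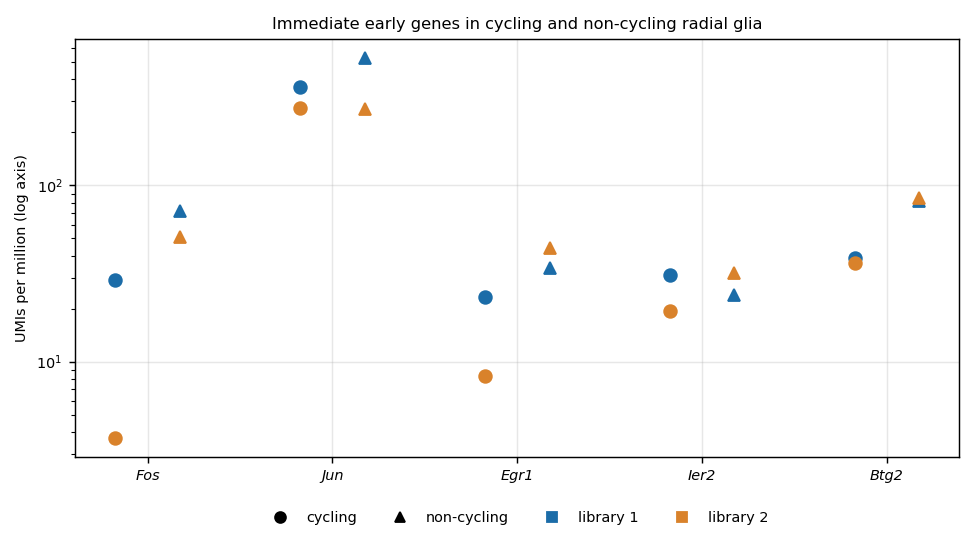
The 5 tested members in cycling (circles) and non-cycling (triangles) radial glia. The y axis gives CPM on a log axis and colours mark the 2 libraries. For *Fos*, *Egr1* and *Btg2* both circles lie below both triangles, whereas those of *Jun* and *Ier2* overlap.

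Among neurons the differences were smaller. Cortical interneurons (the mean of MGE and CGE interneurons) were higher than excitatory neurons in 4 of 9 tested members and lower in none, where 35.4% of all genes passed. The name cortical follows the labelled tissue, as the gates read lineage markers and not position. Cells with striatal markers were present, and whether part of these interneurons lay outside the cortex was not tested. *Jun* stood at 94.4 and 83.1 against 38.9 and 35.7 CPM (1.15 ± 0.18 (SE), edgeR adjusted p = 1.2e-06), *Fos* at 17.2 and 14.3 against 6.04 and 4.03 CPM (1.54 ± 0.39 (SE), edgeR adjusted p = 0.0015), and *Egr1* at 5.40 and 9.29 against 1.70 and 3.52 CPM (1.39 ± 0.50 (SE), edgeR adjusted p = 0.027). The libraries of the 2 classes did not overlap for any of these 3 genes. *Btg2* (18.6 and 10.3 against 9.04 and 8.21 CPM, 0.55 ± 0.22 (SE), edgeR adjusted p = 0.046) lay close to the threshold and lost its call when likely doublets were removed or no low-count filter was used. Its single-library log2 ratios were 0.83 and 0.17, and after thinning to 1500 UMIs per cell its log2 difference changed sign, to -0.18. *Junb* (0.04 ± 0.41) and *Ier2* (-0.03 ± 0.24) lay near 0, and *Fosb* (-0.35 ± 0.60), *Nr4a1* (0.15 ± 0.35) and *Atf3* (1.30 ± 0.68) did not pass either.

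Deep-layer and upper-layer excitatory neurons differed in 1 of 9 tested members, where 15.1% of all genes passed. *Nr4a1* stood at 8.89 and 6.49 CPM in the deep and 2.94 and 2.82 CPM in the upper layers, without overlap, and its log2 difference was 1.33 ± 0.44 (SE), edgeR adjusted p = 0.031. This call was lost when likely doublets were removed. The related nuclear receptor genes *Nr4a2* and *Nr4a3*, which belong to a companion list described below, were also higher in the deep layers, by 1.69 ± 0.26 and 2.58 ± 0.30 on the log2 scale. *Jun* (-0.01 ± 0.25) and *Btg2* (0.25 ± 0.27) lay near 0, and *Fosb* (1.49 ± 0.60), *Junb* (0.92 ± 0.48), *Fos* (0.70 ± 0.56), *Egr1* (0.50 ± 0.72), *Atf3* (0.18 ± 0.93) and *Ier2* (-0.39 ± 0.28) did not pass. Striatal projection neurons differed from cortical interneurons in none of the 9 tested members by edgeR, and none of the 9 passed by DESeq2, where 14.6% of all genes passed by edgeR. Of the 9, 1 was at an unadjusted p under 0.05. The lowest adjusted p was that of *Ier2* (3.71 and 9.74 against 13.5 and 16.6 CPM, -0.98 ± 0.38 (SE), edgeR adjusted p = 0.077), and the fitted differences of the other 8 lay below 0. They were *Atf3* (-2.27 ± 1.12), *Fosb* (-1.84 ± 1.13), *Nr4a1* (-0.88 ± 0.52), *Junb* (-0.75 ± 0.63), *Egr1* (-0.57 ± 0.61), *Fos* (-0.57 ± 0.46), *Btg2* (-0.29 ± 0.28) and *Jun* (-0.27 ± 0.21).

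Among the non-neural types, microglia and macrophages were higher than endothelial cells in 3 of 9 tested members and lower in 1, where 18.9% of all genes passed. *Ier2* was the lower one, at 35.8 and 70.5 CPM in microglia and 142 and 180.3 CPM in endothelial cells (-1.32 ± 0.33 (SE), edgeR adjusted p = 0.0027). *Egr1* stood at 21.5 and 126 against 4.51 and 28 CPM (2.42 ± 0.55 (SE), edgeR adjusted p = 9.4e-04), where library 1 rested on 3 and 2 UMIs. The single-library log2 ratios of *Ier2* were -1.96 and -1.21. *Nr4a1* stood at 78.8 and 32.4 against 4.51 and 18.6 CPM (1.82 ± 0.55 (SE), edgeR adjusted p = 0.014) and *Atf3* at 179 and 57.2 against 40.6 and 33.2 CPM (1.49 ± 0.45 (SE), edgeR adjusted p = 0.016). Library 1 showed the wider gap in both genes, with single-library log2 ratios of 3.83 and 0.89 for *Nr4a1* and 2.11 and 0.89 for *Atf3*. These values rest on 28 and 80 microglia. The calls of *Egr1*, *Nr4a1* and *Atf3* were lost when likely doublets were removed, which left 20 and 48 microglia, no member still testable passed after thinning to 1500 UMIs per cell, and the call of *Nr4a1* was also lost with the stricter gate and without the cell richest in member UMIs. *Fos* did not pass (1.30 ± 0.51 (SE), edgeR adjusted p = 0.072), and in library 1 all 8 of its microglial UMIs lay in 1 cell. *Jun* (0.43 ± 0.29), *Junb* (0.31 ± 0.39), *Btg2* (0.29 ± 0.37) and *Fosb* (0.15 ± 0.74) did not pass.

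Per cell, the members differed in how their UMIs were spread. In all kept cells *Jun* was found in 24.6% and 22.3% of cells, and the richest 1% of cells held 21.3% and 19% of its UMIs. *Btg2* and *Ier2* were spread in a like way, with 24% and 25.5% and with 27.7% and 28.2%. *Fos* was found in 5.16% and 4.80% of cells, and 57.3% and 58.3% of its UMIs lay in the richest 1%. *Fosb*, *Junb* and *Egr1* were concentrated in the same way, between 53.3% and 69.9%. *Nr4a1* lay between these, at 39.5% and 48.8%. *Atf3* and *Arc* were found in under 1% of cells, so that the richest 1% held all of their UMIs. A gene found in fewer cells has, by count alone, more of its UMIs in its richest cells, so this is a description of level and spread together. Single cells reached 26 *Fos* UMIs in each library.

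To compare shares at 1 depth, every cell was thinned to 1500 UMIs. *Jun* was then found in 38.6% and 37.1% of radial glia, 34.3% and 23% of meningeal fibroblasts and 26.7% and 25.9% of endothelial cells, against 4.58% and 4.42% of upper-layer excitatory neurons. Erythroid cells, where globin takes up most of the UMIs kept, gave 0.781% and 2.0%. Unthinned, the shares were 84.3% and 73.5% in radial glia and 3.12% and 3.0% in erythroid cells, at median depths of 8982 and 5395 against 2626 and 2986 UMIs. *Btg2* was found in 19% and 15.7% of thinned intermediate progenitors, 13% and 14.4% of GABAergic progenitors and 7.23% and 8.71% of radial glia, and in 1.63% and 1.20% of upper-layer neurons. *Fos* was found in 34.3% and 13% of meningeal fibroblasts, 6.02% and 1.89% of radial glia and 0.654% and 0.252% of upper-layer neurons. The erythroid share of *Fos* was 0.781% and 0%, which in library 1 is 1 of 128 cells and too few to set a background for the upper-layer share.

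Cells with several members at once were found mainly outside the neural lineages. At 1500 UMIs, 3 or more of the 10 genes were found together in 28.6% and 6.0% of meningeal fibroblasts, 9.52% and 11.4% of mural cells, 7.14% and 12.5% of microglia and 6.67% and 6.03% of endothelial cells. The 2 libraries differed most in fibroblasts, with 10 of 35 against 6 of 100 cells. Among radial glia it was 1 of 166 and 5 of 264 cells, although 47% and 51.5% of them held none of the genes, about as few as in endothelial cells (48.9% and 39.7%). Among 918 and 1585 upper-layer neurons no such cell was seen. In the non-neural types, *Junb* was found in 9 of 15 and 11 of 37 *Fos*-positive cells, against 13.3% and 8.21% of *Fos*-negative cells. In the neural types it was found in 0 of 28 and 0 of 30 *Fos*-positive cells and in 0.976% and 0.436% of *Fos*-negative cells, a share too low for these few cells to show a difference. *Jun* in the neural types was found in 5 of 28 and 6 of 30 *Fos*-positive cells, against 8.44% and 8.06% of *Fos*-negative cells. Cells are not replicates, and these shares carry no test.

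**Figure D3:**
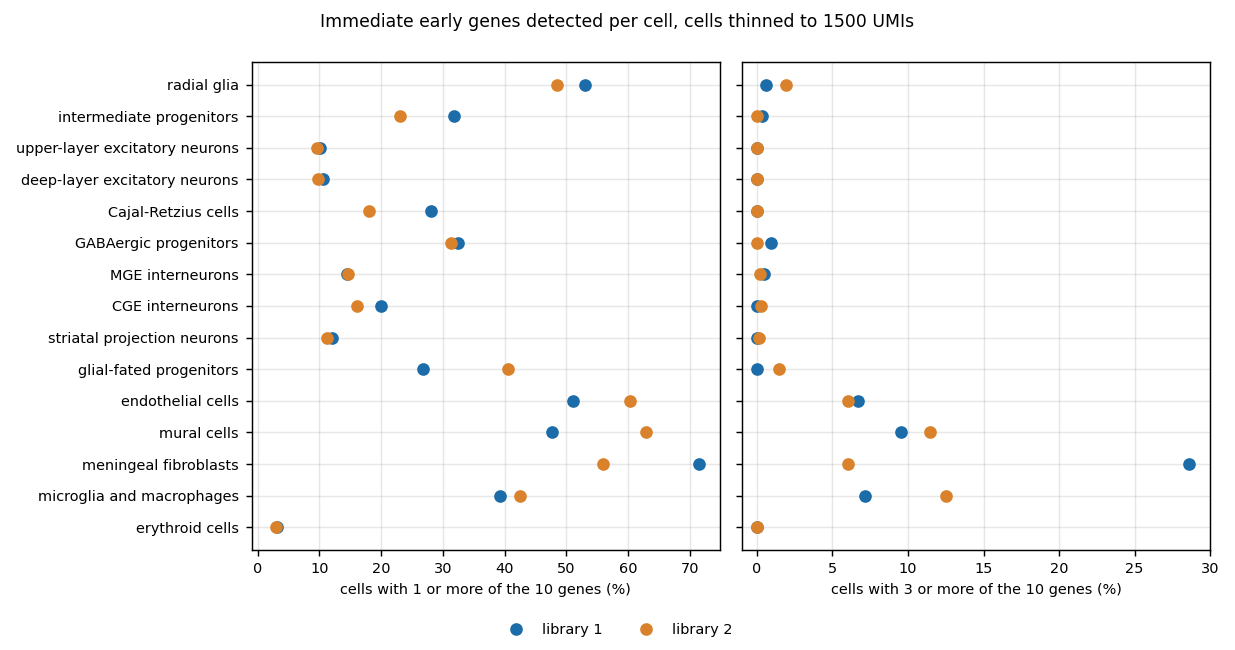
Share of cells with at least 1 (left) and at least 3 (right) of the 10 genes, by type, with every cell thinned to 1500 UMIs. Points are the 2 libraries. Radial glia lie with the vascular types on the left but near 0 on the right, where meningeal fibroblasts of library 1 reach 28.6%.

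Companion lists were measured beside the members. The 3 lists hold 28 other early response genes, 11 heat shock genes, which respond to unfolded protein, and 13 neuronal activity genes. In the vascular, meningeal and immune types against neural types, 20 of the 23 early response genes that reached the count minimum outside the 4 types were higher and none lower, where 54.8% of all genes passed. The median log2 difference of all genes tested was -0.21. *Klf2*, a shear stress factor of endothelium, stood at 259.6 and 318 CPM in endothelial cells but reached the minimum only in the 4 types, and *Cebpd* (4.92 ± 0.19 (edgeR adjusted p = 3.2e-23)), *Klf6* (2.45 ± 0.16) and *Rhob* (1.95 ± 0.10) were higher as well. In radial glia against excitatory neurons 6 of 24 early response genes were higher and 7 lower, near the 54.8% of all genes that passed, with a median of -0.05 beside -0.10. *Ccn1* (5.47 ± 0.33 (edgeR adjusted p = 1.7e-17)) and *Ccn2* (5.99 ± 0.67), which encode matrix-associated growth regulators, were higher in radial glia, and *Ier5* (-1.83 ± 0.18) and *Sgk1* (-3.31 ± 0.39) lower. In intermediate progenitors, none of 24 was higher than in excitatory neurons and 11 were lower (*Sgk1*, *Nr4a2*, *Klf6* and *Nr4a3* by -3.02 ± 0.29, -2.37 ± 0.32, -1.99 ± 0.28 and -2.85 ± 0.41), where 45.5% of all genes passed in either direction, and against radial glia 2 of 24 were higher and 8 lower beside 32.2% of all genes, among the latter *Ccn1* (-4.29 ± 0.38). Cortical interneurons were lower than excitatory neurons in 8 of 24 and higher in none, beside 35.4% of all genes that passed in either direction. *Ier5* stood at 25.3 against 91.3 CPM and *Nr4a2* at 4.23 against 29.8 CPM. In deep against upper layers, where 15.1% of all genes passed, 5 of 24 were higher, among them *Fosl2* (4.22 ± 0.48 (edgeR adjusted p = 5.6e-09)), and 1 was lower. Striatal projection neurons were higher than cortical interneurons in 3 of 24 and lower in none, beside 14.6% of all genes. Microglia were higher than endothelial cells in 5 of 24 and lower in 3, beside 18.9%. By cycle state of radial glia 1 of 10 was lower and none higher, beside 15.1%.

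The summed level of the heat shock genes, most of it from constitutive genes such as *Hsp90ab1* and *Hspa8*, lay between 3666 and 6094 CPM in the 14 types other than erythroid cells, apart from microglia of library 1 at 8644 CPM. Between the non-neural and neural types 6 of the 10 that reached the count minimum outside the 4 types were higher and 2 lower, beside 54.8% of all genes. The inducible *Hspa1a* was among them, at 278 against 5.17 CPM in the mean of the types (5.01 ± 0.24 (edgeR adjusted p = 1.2e-20)), and so was *Hspa1b* (4.47 ± 0.26), whose near-identical sequence can share reads with it. *Hspa1a* reached 1346 and 440.4 CPM in microglia against 142 and 36.3 in endothelial cells and 34.7 and 69.2 in fibroblasts. In radial glia, where *Jun* was high, it stood at 10.2 and 8.66 CPM. In radial glia against excitatory neurons 4 of 11 heat shock genes were higher and 1 lower, beside 54.8% of all genes, the mitochondrial chaperones *Hspe1* (0.72 ± 0.12) and *Hspd1* (0.54 ± 0.10) among the former and *Dnaja1* (-0.66 ± 0.13) the latter. Intermediate progenitors were higher than excitatory neurons in 5 of 11, *Hspa1a* (2.22 ± 0.49) among them, and lower in none. Of all genes, 45.5% passed there in either direction and 20.5% were called higher. Cortical interneurons were lower in 5 of 11, *Hsp90ab1* (-0.57 ± 0.12) among them, beside 35.4% of all genes. In cycling against non-cycling radial glia 3 of 8 were higher (*Hsp90aa1*, *Hspa8* and *Dnaja1*) and none lower, beside 15.1% of all genes in either direction. Against radial glia, intermediate progenitors were higher in 1 of 11 and lower in 2, beside 32.2%. Microglia were higher than endothelial cells in 5 of 11 and lower in 1, beside 18.9%. Striatal projection neurons were higher than cortical interneurons in 1 of 11 and lower in none, beside 14.6%. Deep against upper layers had no call on this list.

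The neuronal activity genes were tested in the same comparisons. In radial glia against excitatory neurons 6 of 9 were lower and none higher, beside 54.8% of all genes, with a median log2 difference of -2.48 beside -0.10 over all genes, and between the non-neural and neural types 4 were lower and 1 was higher of 9, near the share of all genes that passed there. *Homer1*, a postsynaptic scaffold gene, was lower in radial glia (-2.09 ± 0.18 (edgeR adjusted p = 6.5e-13)), and *Sik1*, a kinase gene, was lower there as well (-3.76 ± 0.50) but was the gene that was higher in the non-neural types (1.53 ± 0.27). *Nrn1*, which encodes a neurite growth factor, was at 293 and 282 CPM in intermediate progenitors against 21.6 and 20.8 in radial glia and 62.4 and 62.2 in upper-layer neurons, higher by 2.27 ± 0.12 (edgeR adjusted p = 4.5e-19) than in excitatory neurons, where 6 other genes of the 9 tested were lower beside 45.5% of all genes called. In cortical interneurons, where 35.4% of all genes passed, 4 of 9 were lower and 1 was higher, the prohormone convertase gene *Pcsk1* (3.34 ± 0.43). In deep against upper layers 1 of 9 was higher and 1 lower, near the 15.1% of all genes, and in striatal projection neurons against cortical interneurons 3 of 9 were higher and 1 lower, beside 14.6%. In intermediate progenitors against radial glia 2 of 9 were higher, *Nrn1* (3.80 ± 0.20) among them, and none lower, beside 32.2% of all genes. Microglia against endothelial cells and cycling against non-cycling radial glia had no call on this list by edgeR (9 and 3 genes tested). The part of dissociation, activity or cell state in the members' levels was not tested, and no library prepared in another way was analysed here.

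**Figure D4:**
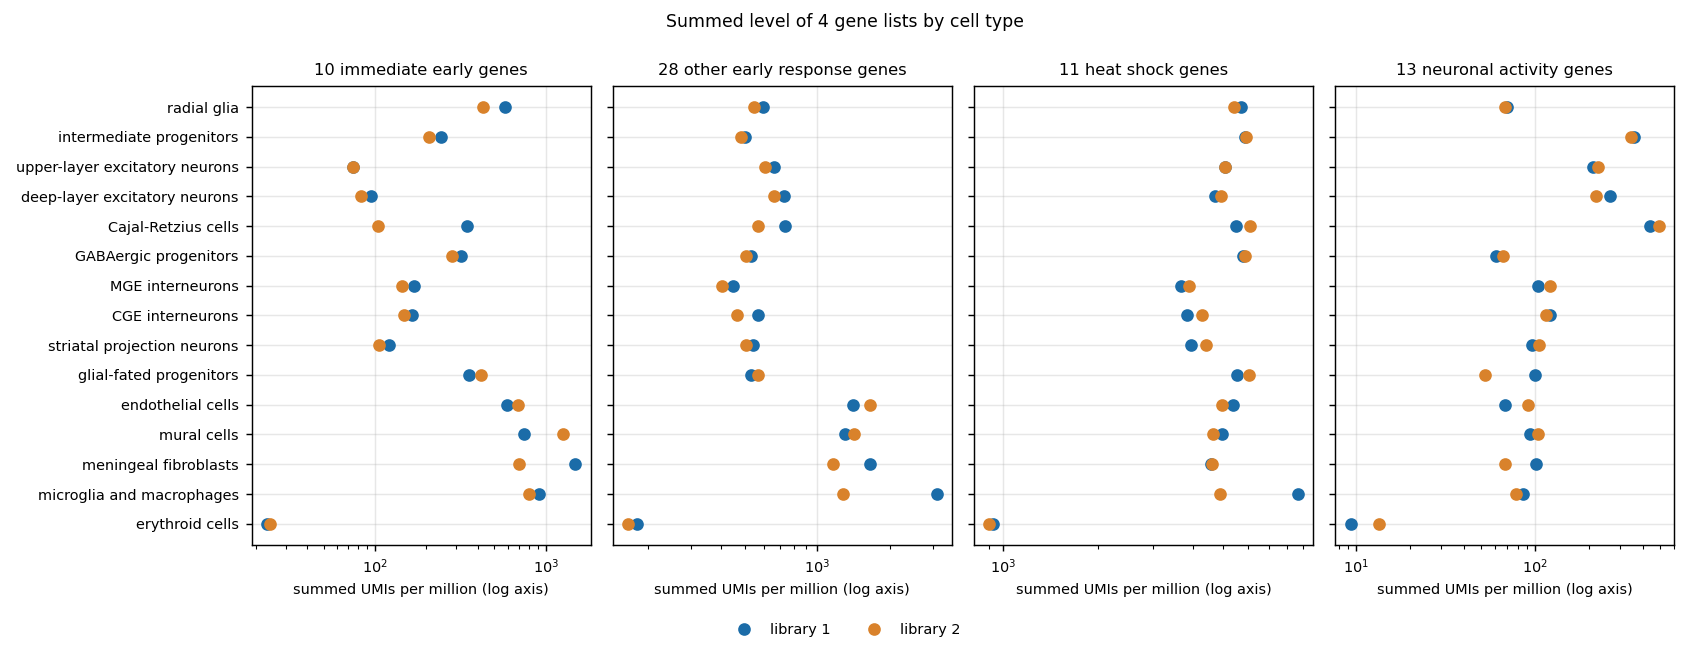
Summed level of the 10 members and of 3 companion lists by type, in CPM on log axes. Points are the 2 libraries. The members and the other early response genes are highest in vascular, meningeal and immune types, the heat shock genes span a narrow range outside erythroid cells, and the neuronal activity genes are highest in Cajal-Retzius cells and intermediate progenitors.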

How the data were processed

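The 2 droplet libraries (10x Genomics, 3′ kit v3.1) were made from WT cortex dissociated with papain. The values deposited by the authors were raw counts of UMIs per gene and barcode, filtered for cells by Cell Ranger. The submitters' processing notes name version 7.0.0 and mm10, and the file headers version 7.1.0. The libraries held 46398156 and 64324236 UMIs. From these, cells with 1500 to 60000 UMIs and under 10% mitochondrial UMIs were kept, and types were gated on counts of detected markers (for example 5 of the radial glia list, 3 of a vascular, meningeal or immune list with a lead of 2 over the others), with gate settings chosen from markers alone. Cells meeting no gate or several were left untyped. UMIs were summed per type and library for types with at least 20 cells in each library. A gene was tested where 2 or more sums held 10 or more counts, with the quasi-likelihood test of edgeR 4.0.16 in R 4.3.3, TMM scaling, the library as a block and Benjamini-Hochberg adjustment over all genes, at a threshold of 0.05. All types entered 1 fit, and radial glia by cycle state another of 4 sums. Single-library log2 ratios used a prior count of 2. The library is the block because all sums of one number come from the same library. The procedure was tested on simulated data.

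All members are described in each comparison where they could be tested. Of each companion list, the counts are given, and by name up to 4 genes per comparison with the smallest adjusted p among those at 10 CPM or more in the higher group and of 1 direction in both libraries. The genes most alike were the 5 with the highest r among genes at 20 CPM or more in some type in both libraries, without members, markers, mitochondrial and ribosomal protein genes. The members and the lists were chosen with earlier results of these data known. Doublets were not removed in the main analysis. Scrublet (scanpy 1.11.5) marked 0 cells of library 1 and 380 of library 2 by its own threshold, so its threshold did not work in library 1, and the alternative removed the highest scores at 0.8% per 1000 barcodes (432 and 1111 cells). Other alternatives were DESeq2 1.42.0, RLE scaling, no block, no low-count filter, a stricter gate, thinning to 1500 UMIs and each library alone. The text says where 2 further ones, chosen after seeing the data, were used: leaving out erythroid cells, and leaving out the cell richest in member UMIs of each sum. Sampling intervals and limits for a count of 0 (3 counts) cover counting error only. Fewer positive cells and less RNA per cell cannot be told apart in a sum.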

Additional observations from a re-analysis of the deposited data

Results flagged for a closer look

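Signals of the members were also present in barcodes that the comparisons left out. In the 2748 and 5063 kept cells that met no gate or several, the 10 genes summed to 172 CPM in library 1 and 164 CPM in library 2, above MGE and CGE interneurons in both libraries and below intermediate progenitors. *Jun* held 78.9 and 70.9 CPM of that and *Btg2* 28.5 and 28.2. In barcodes with 10 to 25% mitochondrial UMIs, the members summed to 217 UMIs per 1000000 nuclear-encoded UMIs in library 1 and 300.5 in library 2. In kept cells with 5 to 10% they summed to 216 and 220.0 on the same scale, and in those with 2.5 to 5% to 208 and 181. Under 2.5% they summed to 231 and 182, so that in library 1 no bin below 25% stood above the lowest. The 20 and 14 barcodes at 25% or more gave 978 and 647, on 29 and 11 UMIs. These values were not compared between types.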

How the results depend on the processing

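Of 37 calls among 77 tests of members, 37 stayed past the threshold with RLE scaling, 36 without the low-count filter, 35 with the stricter gate, 34 with DESeq2 and 32 with likely doublets removed. Of the alternatives chosen after seeing the data, leaving out erythroid cells kept 34 of 34 calls and leaving out the cells richest in member UMIs kept 34. Without the replicate block 35 calls stayed. The 2 that were lost were *Fos* and *Egr1* in cycling against non-cycling radial glia, where the members called went from 3 to 1 and all genes called from 1380 to 880. In that comparison DESeq2 called 0 members and 257 genes in all.

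Thinning to 1500 UMIs per cell leaves fewer counts and lets fewer genes pass the filter, and 19 of the 24 calls that still had a value stayed. Members called went to 4 in radial glia and 3 in intermediate progenitors against excitatory neurons, and to 0 in deep against upper layers, 0 in microglia against endothelial cells and 0 by cycle state. In deep against upper layers and by cycle state the genes called before thinning had too few counts left to be tested. All genes called fell in the order of the 9 comparisons to 4395, 4245, 3611, 2167, 2735, 1177, 1194, 1014 and 334, from 8162, 8169, 6772, 4792, 5273, 2248, 2171, 2821 and 1380. *Btg2* in cortical interneurons against excitatory neurons changed sign, to -0.18. Without the low-count filter the members called were 2 in deep against upper layers and 1 in striatal projection neurons against cortical interneurons, and with likely doublets removed 1 in microglia against endothelial cells. With 1 library left out there is no test. The log2 ratios of the single libraries had the sign of the fit in both libraries for all 37 calls and lay between -3.05 and 5.09. Of 150 shares of positive cells, 35 moved by more than 1 SD of the libraries with likely doublets removed, 67 with under 5% mitochondrial UMIs, 125 after thinning to 1500 UMIs and 122 where a cell needed at least 2 UMIs. Thinning and the higher minimum lower a share by construction, and the cause of the other moves was not tested. Depth limits *Arc* in all types and every member in Cajal-Retzius cells and microglia of library 1.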

Other observations

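Cajal-Retzius cells, the reelin-secreting neurons of the marginal zone, and glial-fated progenitors entered no comparison. *Fos* stood at 83.9 and 34.6 CPM in Cajal-Retzius cells, above the level of every other neuron type in both libraries, on 17 and 12 UMIs, of which 1 cell held 8 and 5. *Jun* in these cells was 163 and 31.7 CPM and thus differed between the libraries. In glial-fated progenitors, *Egr1* was found in 34.1% and 30.4% of cells, *Ier2* stood at 41.2 and 72.1 CPM and *Atf3* gave no UMI in either library, where a count of 0 allows up to 8.84 and 5.85 CPM.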
